A study of Mus musculus with 6 samples.

Results

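The 37 genes described here are markers of astrocytes and of reactive glia, followed in oligodendrocyte precursor cell (OPC) cultures from the spinal cord. They were taken as a list of symbols, located in the GENCODE annotation of the mouse genome (mm10) and matched by position to the transcripts assembled in each library. Of the 37 genes, 36 could be quantified, among 31266 genes quantified in all, and 35 had a mean of at least 1 FPKM and were tested, among 12045 genes tested in all. FPKM is the density of sequenced fragments along a transcript, corrected for its length and for the size of the library. The level of a gene is the average over its annotated bases, which unassembled bases lower, and since genes differ in assembled extent their levels compare only roughly. Gjb6 lay under the minimum level, and Mt2 is described separately because too little of it is free of an overlapping gene.

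The study compared 3 libraries from Gde3 knockout (KO) cells with 3 from wild-type (WT) cells, all on a C57BL/6 strain background. Gde3 is the name given in the labels to Gdpd2, whose product GDE3 cleaves the glycosylphosphatidylinositol anchor of membrane proteins, and the series title ties it to OPC proliferation and to release of the soluble receptor for ciliary neurotrophic factor (CNTF). Cells came from spinal cords at postnatal day 0.5, were pulled down magnetically with beads for the glial precursor epitope A2B5, and were cultured for 16 h. The medium of both genotypes held 10 ng/mL platelet-derived growth factor (PDGF), 10 ng/mL CNTF and 5 µM forskolin, an activator of adenylate cyclase, so no library lacked CNTF and its effect has no contrast here. Knockout is the genotype as labelled, with neither the deleted exons nor a Cre driver named, and whether replicates were separate animals, litters or pools is not stated. The p-values therefore reflect only how these 6 libraries vary, and part of that variation may be technical.

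CNTF binds a receptor made of CNTF receptor alpha, LIFR and gp130, and signals through the kinases JAK1 and JAK2 to the transcription factor STAT3. In neural precursors active STAT3, together with bone morphogenetic protein signalling and the nuclear factor I proteins, turns on astrocyte genes such as Gfap. A2B5-positive glial precursors can form oligodendrocytes or astrocytes in culture. Mature astrocytes take up glutamate and potassium, move water, couple through gap junctions and secrete apolipoproteins, while reactive astrocytes raise Gfap, Serpina3n, Lcn2 and Cd44. Several of the 37 genes are also used by other cells, for example Sox9 and Nfia by glial progenitors and Apoe and Cst3 by microglia.

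Facts of the libraries bear on every value below. The assembly of WT replicate 1 was in shorter pieces, with a share of 36.8% shorter than 300 nt, where the other 5 libraries had 2.16% to 6.61%, and the relative depth of the 6 libraries ran from 0.759 in WT replicate 1 to 1 in WT replicate 3. WT replicate 1 also differed in sex-linked genes, with Xist at 15.4 FPKM there and listed at 0 in the other 5 libraries. Both replicate 1 libraries carry a middle number of 3 in their identifiers and the other 4 libraries a middle number of 4, and what that number stands for is not stated. In the check of the deleted gene, exon 9 of Gdpd2 was assembled over 0% of its length in all 3 KO libraries and over 100% in all 3 WT libraries. Other parts of Gdpd2 were present in KO, with exons 2 to 5, 11 and 12 assembled over 100% in all 3 KO libraries. WT replicates 2 and 3 held sequence of all 16 Gdpd2 exons, at 3.46 and 3.74 FPKM over exon 9. WT replicate 1 held only exon 9 with 19.46% of exon 8 and 21.85% of exon 10, at 26.5 FPKM over exon 9. Unlike the gene levels, this check counted transcripts of any length, and the WT replicate 1 value rests on that stretch alone. OPC markers were abundant under both labels, with the 16 genes of that list summing to 1650, 1370 and 1420 FPKM in KO replicates 1 to 3, against 1790, 1680 and 1240 FPKM in WT replicates 1 to 3.

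Gfap, Aqp4, Slc1a3 and Aldh1l1, widely used astrocyte markers, were assembled in every library. Ordered by their mean level over the 6 libraries, the 36 quantified genes were led by Apoe at 232 FPKM and Cst3 at 229 FPKM, followed by Gfap, Mt1 at 177 FPKM and Serpina3n at 161 FPKM. This order depends on assembled extent: over assembled bases only, Mt1, of which 41.6% to 44.1% of the bases were assembled, lay above Cst3 in all 6 libraries. The low end of the order held Slc39a12, Lcn2, Chrdl1, Slc7a10 and Gjb6, at 3.30, 1.86, 1.37, 1.29 and 0.157 FPKM. Neighbours in this order overlapped in their ranges over the libraries. The highest and lowest library differed by more than 10-fold for Gfap, Aqp4 and the low Lcn2, and both Slc7a10 and Gjb6 were listed at 0 in 3 libraries. For S100b, Cst3 and Glul the ranges were 20.5 to 30.1, 206 to 264 and 106 to 144 FPKM.

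Of the 35 tested genes 23 divided without overlap by replicate number and 0 by genotype. The division was mostly downward, since 19 had both replicate 1 libraries below the other 4 libraries, whichever the genotype, where 21.3% of all tested genes did so. The reverse, both replicate 1 libraries above the other 4, held for 4 genes, Chrdl1, Mt1, Lcn2 and Cd44, beside 18.7% of all tested genes. The other 12 overlapped. The median difference of the 35 genes between replicate 1 and replicates 2 and 3 was -0.56 on the log2(FPKM + 1) scale, against 0.005 for all tested genes. With genotype in the model, limma called 5 of the 35 genes lower in replicate 1 at a Benjamini-Hochberg adjusted p under 0.05 over all tested genes and 0 higher, beside 1.72% of all tested genes called lower and 0.349% called higher. The split lies between replicate numbers, and same-numbered libraries deviated together, so it sets 1 replicate number against 2. The fit took the 6 libraries as independent, and its errors and p-values leave this pairing out. An unadjusted p under 0.05 was reached by 23 of the 35, beside 24.2% of all tested genes. In bulk RNA, fewer cells of a type and less RNA per cell cannot be told apart, and neither can the identifier number and anything else that set the replicate 1 cultures apart. The proliferation marker Mki67, chosen after its values were seen, had 14.2 FPKM in KO and 12.1 FPKM in WT for replicate 1, while replicates 2 and 3 ranged from 67.4 to 73.7 FPKM. Mki67 is 1 gene, with no other proliferation gene beside it, and its assembled extent is not given. The part of this difference in the result was not tested.

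**Figure D1:**
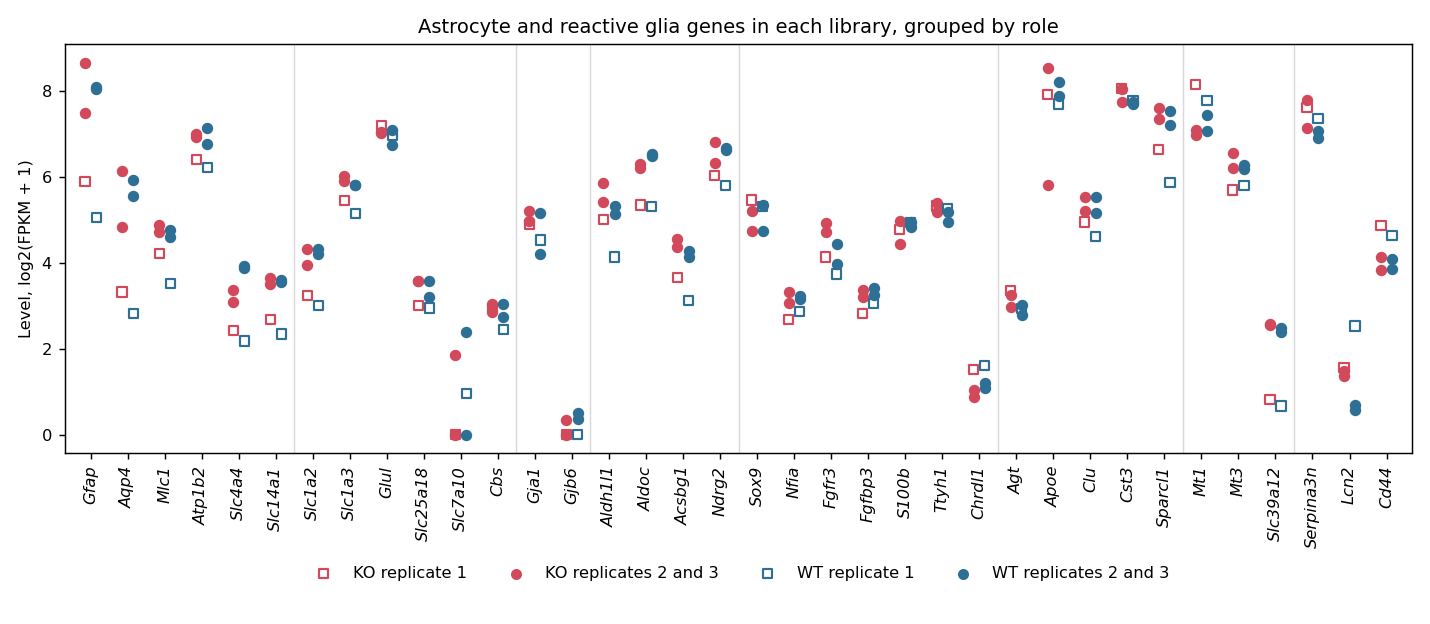
Level of each of the 36 quantified genes in each library as log2(FPKM + 1), with genes grouped by role between the vertical lines. Red symbols are KO and blue symbols WT, open squares are replicate 1 and filled circles replicates 2 and 3. The open squares of Gfap, Aqp4, Slc1a2, Aldoc and Slc39a12 lie under the filled circles in both genotypes, those of Mt1 and Cd44 lie above them, and red and blue symbols of 1 gene overlap.

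Promoter sequences are shown for 3 genes that were low in replicate 1 and hold the STAT core motif, since CNTF signals through STAT3. They are windows of 300 bases around an annotated start from a RefSeq table (GRCm38.p6), in which 30 of the 37 genes were matched. Those not matched were Aqp4, Atp1b2, Chrdl1, Clu, Slc14a1, Sox9 and Sparcl1. A gene can have more than 1 window there, with 32851 windows for 27025 genes, and the first that holds the motif is shown. Each window shown is printed in the direction of transcription, with matches to TTCNNNGAA in capitals. The Gfap window is chr11:102897151-102897450 on the minus strand, that of Aldoc chr11:78323948-78324247 on the plus strand and that of Acsbg1 chr9:54661836-54662135 on the minus strand.
Gfap: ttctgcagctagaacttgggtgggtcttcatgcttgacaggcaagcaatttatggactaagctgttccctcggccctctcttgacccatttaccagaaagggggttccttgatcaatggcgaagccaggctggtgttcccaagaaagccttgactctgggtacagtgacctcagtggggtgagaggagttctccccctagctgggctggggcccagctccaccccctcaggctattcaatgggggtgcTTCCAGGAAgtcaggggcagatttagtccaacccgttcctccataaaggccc
Aldoc: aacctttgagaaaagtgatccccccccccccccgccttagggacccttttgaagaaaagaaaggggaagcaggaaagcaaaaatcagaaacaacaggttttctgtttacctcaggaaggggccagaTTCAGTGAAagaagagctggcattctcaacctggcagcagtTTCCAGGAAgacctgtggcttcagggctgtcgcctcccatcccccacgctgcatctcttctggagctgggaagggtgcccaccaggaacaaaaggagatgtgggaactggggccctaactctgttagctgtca
Acsbg1: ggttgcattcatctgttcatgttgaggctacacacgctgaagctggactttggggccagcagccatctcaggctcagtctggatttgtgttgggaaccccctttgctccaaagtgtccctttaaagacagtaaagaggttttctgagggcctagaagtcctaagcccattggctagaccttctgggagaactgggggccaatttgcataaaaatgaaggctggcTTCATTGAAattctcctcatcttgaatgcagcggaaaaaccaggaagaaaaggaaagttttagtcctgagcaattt
The motif was searched on both strands, which for a palindrome are the same search. It was found in 5 of the 30 matched genes, Acsbg1, Agt, Aldoc, Gfap and Slc1a3, a share of 16.7%, against 9.55% of the 27025 genes in the table. Slc1a3 was low in replicate 1 too, and its window is not shown. Counting the annotated start base of the window as 0, the match began at -2 in Gfap, at -124 and -83 in Aldoc and at -26 in Acsbg1. The Aldoc window lies inside the gene, which begins at base 78322968. A match describes these letters only. The windows shown were picked for low replicate 1 levels as well as for the motif, so they say nothing of a link between them.

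Among genes of the cytoskeleton, water and ion transport, all 6 were lower in both replicate 1 libraries than in the other 4. The same held for 21.3% of all tested genes. Gfap, the intermediate filament protein of astrocytes (ENSMUSG00000020932.14, chromosome 11, 102887336 to 102900912, minus strand, mm10), was at 57.9, 178 and 401 FPKM in KO replicates 1 to 3 and at 32.1, 263 and 268 FPKM in WT replicates 1 to 3. Replicate 1 was thus the lowest library of each genotype, and KO and WT overlapped. Replicate 1 averaged 45.0 FPKM and replicates 2 and 3 averaged 278 FPKM, a log2 difference of -2.60 ± 0.38 (SE; limma adjusted p = 0.05003, just outside the threshold). Aqp4, the water channel of astrocyte endfeet, was at 8.95, 27.4 and 68.5 FPKM in KO and at 6.02, 46.1 and 59.5 FPKM in WT, with the same libraries low (log2 difference -2.54, limma adjusted p = 0.0581). The 6 libraries stood in the same order for Gfap and Aqp4, with KO replicate 3 highest and WT replicate 1 lowest. Slc14a1, a urea transporter, passed the test, with 5.35, 11.4 and 10.3 FPKM in KO and 4.06, 10.96 and 10.7 FPKM in WT (log2 difference of replicate 1 against replicates 2 and 3 -1.06 ± 0.11 SE, limma adjusted p = 0.0387). Mlc1, a membrane protein of astrocyte junctions, was at 17.5, 25.1 and 28.5 FPKM in KO and at 10.4, 23.3 and 26.2 FPKM in WT. Atp1b2, a sodium pump subunit, ranged from 83.7 to 127 FPKM in KO and from 73.3 to 139 FPKM in WT. For both genes the low value of each genotype was replicate 1, without a call.

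Slc4a4, the sodium bicarbonate cotransporter, differed between libraries in how much of it was assembled. Its level was 4.33, 7.46 and 9.27 FPKM in KO and at 3.52, 13.7 and 14.1 FPKM in WT. Its last exon block, 4147 nt long, was assembled over 95.2%, 0.772% and 0.748% of its bases in KO replicates 1 to 3 and over 80.8%, 98.6% and 98.5% in WT replicates 1 to 3. Over the 3650 bases assembled in all 6 libraries the levels were 6.47, 20.1 and 24.9 FPKM in KO and 5.04, 17.7 and 18.3 FPKM in WT. The KO minus WT difference of Slc4a4, -0.37 on the log2 scale over all its bases, was 0.30 over these shared bases, and neither value passed. Replicate 1 against replicates 2 and 3 was -1.65 ± 0.12 (SE; limma adjusted p = 0.0135) over the shared bases and -1.26 ± 0.23 (limma adjusted p = 0.0675) over all bases.

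Some exon blocks had the same assembled share in all 6 libraries. The Gfap block of 1355 nt that lies before its last 2 blocks was assembled over 0% of its bases in every library, while blocks 2 to 7 and block 9 were complete. The 10 middle blocks of Cd44, its alternatively spliced variable exons, were at 0% in every library and the blocks on either side of them were assembled. Ttyh1, by contrast, had its last block of 2695 nt assembled over 83.1% of its length in KO replicate 1 and 87.3% in WT replicate 1, against 19.7% to 22.3% in the other 4 libraries. Averaged over all its bases, Ttyh1 overlapped between replicate 1 and the other libraries. Over the 1494 bases assembled in all 6 libraries it was at 62.6, 75.6 and 94.3 FPKM in KO and at 41.9, 77.3 and 71.2 FPKM in WT. On these shared bases replicate 1 lay below the other 4 libraries without a call (log2 difference -0.62, limma adjusted p = 0.0945).

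**Figure D2:**
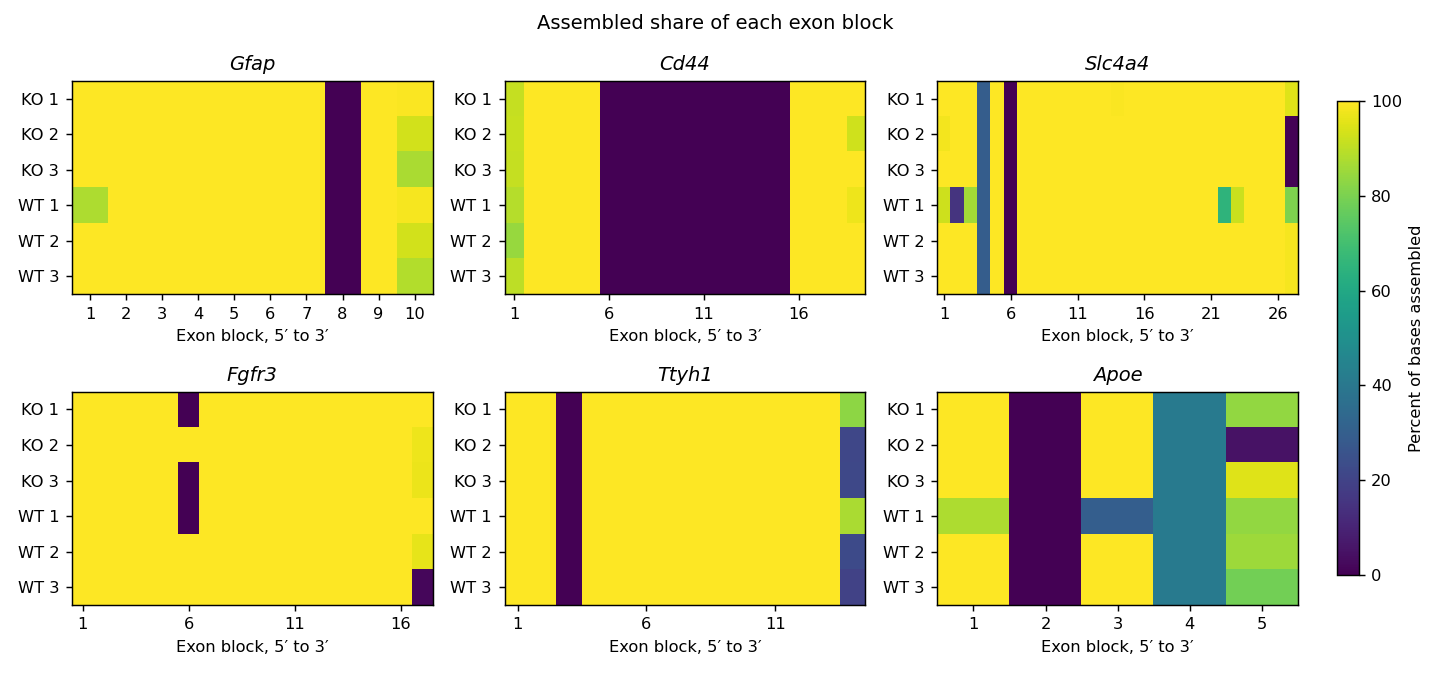
Share of each exon block's bases that was assembled, in percent by colour, for 6 genes with blocks in order along the gene on the horizontal axis and the 6 libraries down the page. Gfap block 8 and Cd44 blocks 6 to 15 are dark in every library, the last Slc4a4 block is dark in KO replicates 2 and 3 only, the last Fgfr3 block in WT replicate 3 only and the last Apoe block in KO replicate 2 only, and the last Ttyh1 block is fuller in both replicate 1 libraries.

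Of the 6 genes of glutamate and amino acid handling, 3 lay lower in both replicate 1 libraries than in the other 4. The same held for 21.3% of all tested genes. Slc1a2, the glutamate transporter GLT-1, was at 8.35, 14.3 and 18.8 FPKM in KO and at 6.997, 17.3 and 18.98 FPKM in WT. Both replicate 1 libraries lay under all the others and the genotypes overlapped (log2 difference of replicate 1 against replicates 2 and 3 -1.08 ± 0.15 SE, limma adjusted p = 0.0494). Slc1a3, the glutamate transporter GLAST, which radial glia and progenitors also express, was at 42.5, 63.4 and 58.3 FPKM in KO and at 34.2, 55.01 and 54.97 FPKM in WT. The same libraries were low for Slc1a3, by a smaller step that missed the threshold (-0.59, limma adjusted p = 0.0533). Slc25a18, a mitochondrial glutamate carrier, also had both replicate 1 libraries below the rest, at 6.69 to 10.9 FPKM over the 6 libraries. Glul, which encodes glutamine synthetase, did not show this split, with 144, 128 and 129.8 FPKM in KO and 124, 135 and 106 FPKM in WT. Its difference between replicate 1 and the rest was 0.10 on the log2 scale. Cbs, cystathionine beta-synthase, ranged from 6.16 to 7.15 FPKM in KO and from 4.46 to 7.25 FPKM in WT. Slc7a10, a neutral amino acid transporter, was listed at 0 in KO replicates 1 and 2 and in WT replicate 3, and was at 2.63 FPKM in KO replicate 3 and at 0.934 and 4.19 FPKM in WT replicates 1 and 2. A listed 0 means that nothing of 300 nt or more was assembled there.

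The gap junction genes differed from each other in level. Gja1, which encodes connexin 43, was at 28.7, 30.5 and 36.03 FPKM in KO and at 21.99, 17.3 and 34.4 FPKM in WT. The low WT replicate 2 value stood beside an assembled extent of 32.6% there, against 86.3% to 91.1% in the other 5 libraries. Over the bases assembled in all 6 libraries, Gja1 was at 33.2, 35.3 and 39.6 FPKM in KO and at 24.7, 53 and 38 FPKM in WT. Gjb6, connexin 30, a marker of later astrocytes, was listed at 0 in KO replicates 1 and 2 and WT replicate 1, and did not exceed 0.415 FPKM in the others.

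All 4 metabolic genes were lower in both replicate 1 libraries, beside 21.3% of all tested genes, and 2 of them passed the test, beside 1.72%. Aldoc, the brain isoform of aldolase, was at 39.5, 76.8 and 72.1 FPKM in KO and at 38.3, 90.5 and 88.4 FPKM in WT (log2 difference of replicate 1 against replicates 2 and 3 -1.05 ± 0.11 SE, limma adjusted p = 0.0361). Acsbg1, an acyl-CoA synthetase, was at 11.5, 19.6 and 22.4 FPKM in KO and at 7.66, 18.4 and 16.5 FPKM in WT (-0.95 ± 0.12 SE, limma adjusted p = 0.0411). For both, each genotype's replicate 1 lay apart below and the genotypes overlapped. Aldh1l1, a folate enzyme used as a marker of astrocytes at large, was at 31.05, 41.4 and 56.8 FPKM in KO and at 16.5, 38.6 and 33.9 FPKM in WT. Ndrg2 ranged from 63.8 to 111 FPKM in KO and from 54.5 to 100.2 FPKM in WT, again with replicate 1 lowest and no call.

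Of the 7 transcription and signalling genes, 2 lay lower and 1 higher in both replicate 1 libraries than in the other 4. Over all tested genes 21.3% lay lower and 18.7% higher in this way. Sox9, a transcription factor of gliogenesis, was at 42.9, 35.95 and 25.6 FPKM in KO and at 38.4, 39.2 and 25.5 FPKM in WT, and replicate 3 was the lowest library of each genotype. Nfia, nuclear factor I/A, was at 5.37, 8.89 and 7.37 FPKM in KO and at 6.31, 8.28 and 7.87 FPKM in WT. Fgfbp3, a carrier of fibroblast growth factors, was at 6.01 to 9.31 FPKM in KO and at 7.30 to 9.55 FPKM in WT. Both had replicate 1 lowest, by 0.41 and 0.37 on the log2 scale, without a call. For Nfia, 78.4% of the bases were assembled in WT replicate 1, against 94.8% to 99.7% in the other libraries. Over its 7403 shared bases Nfia was at 5.42, 9.33 and 7.39 FPKM in KO and 8.03, 8.42 and 7.92 FPKM in WT. On these bases replicate 1 overlapped the other libraries. S100b, a calcium-binding protein that OPCs also express, was at 26.1, 20.5 and 30.1 FPKM in KO and at 29.7, 27.6 and 29.6 FPKM in WT, with no split by replicate. Ttyh1, a membrane protein of glial progenitors, ranged from 34.9 to 41.1 FPKM in KO and from 30.04 to 37.02 FPKM in WT over all its bases. Chrdl1, a secreted antagonist of bone morphogenetic proteins, went the other way at a low level, with 1.87, 0.829 and 1.04 FPKM in KO and 2.06, 1.12 and 1.31 FPKM in WT. It lies on the X chromosome.

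Of the 5 secreted products, 2 lay lower in both replicate 1 libraries, beside 21.3% of all tested genes. Sparcl1, the synaptogenic matrix protein hevin, was at 98.5, 160.2 and 192 FPKM in KO and at 57.1, 184 and 147 FPKM in WT, with replicate 1 lowest in each genotype (log2 difference -1.17, limma adjusted p = 0.0646). Clu, clusterin, was at 29.8, 35.8 and 45.1 FPKM in KO and at 23.4, 44.9 and 34.3 FPKM in WT in the same order of replicates. Apoe, the main lipid carrier of the brain, was at 240.2, 54.8 and 367 FPKM in KO and at 205, 293 and 232 FPKM in WT. KO replicate 2 held its low value with only 4.82% of the last Apoe block assembled, against 78.8% to 95.1% in the other 5 libraries. Over the 439 bases assembled in all 6 libraries, Apoe was at 275, 165 and 352 FPKM in KO and at 308, 320.0 and 253 FPKM in WT. Cst3, the protease inhibitor cystatin C, was at 264, 213 and 262 FPKM in KO and at 216, 213 and 206 FPKM in WT. Agt, angiotensinogen, was at 9.17, 6.78 and 8.49 FPKM in KO and at 6.63, 7.08 and 5.83 FPKM in WT. Neither had the split by replicate.

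The metal genes pointed in opposite directions. Slc39a12, a zinc transporter, had the smallest adjusted p of the 35 genes for this split. It was at 0.753, 4.92 and 4.81 FPKM in KO and at 0.581, 4.55 and 4.19 FPKM in WT, so that replicate 1 lay 6.93-fold below replicates 2 and 3 on average (log2 difference -1.75 ± 0.10 SE, limma adjusted p = 0.0218). Its assembled extent was 59.6% and 33.8% in KO and WT replicate 1 and 82.1% to 92.5% in the other 4 libraries, and over shared bases the difference was -1.34. Mt1, a metallothionein that binds zinc and copper, was at 282, 125 and 134 FPKM in KO and at 216, 132 and 171 FPKM in WT, above in both replicate 1 libraries (0.82, limma adjusted p = 0.0985). Mt3, the brain metallothionein, was at 50.6, 72.97 and 92.3 FPKM in KO and at 54.1, 76.2 and 70.9 FPKM in WT, below in both replicate 1 libraries (-0.56, limma adjusted p = 0.105). Mt1 and Mt3, which flank Mt2 on chromosome 8, thus differed in opposite directions between replicate 1 and the other libraries, and neither was called. Mt2 could be read over 156 bases only, because an antisense gene overlaps the rest, and was at 427, 523 and 372 FPKM there in KO and at 557, 314 and 266 FPKM in WT. Mt2 was not tested.

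The promoters of Mt1 (chr8:94178839-94179138, plus strand) and Mt3 (chr8:94152357-94152656, plus strand) are shown for this contrast, from the same RefSeq table. Capitals mark the core of the metal response element, TGCACNC or TGCGCNC, searched on both strands.
Mt1: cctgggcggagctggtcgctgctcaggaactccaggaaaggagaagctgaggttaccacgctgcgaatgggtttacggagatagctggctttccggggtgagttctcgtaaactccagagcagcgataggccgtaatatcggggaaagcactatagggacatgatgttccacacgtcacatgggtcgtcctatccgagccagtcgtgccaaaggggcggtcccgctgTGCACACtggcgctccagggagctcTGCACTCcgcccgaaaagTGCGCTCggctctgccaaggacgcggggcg
Mt3: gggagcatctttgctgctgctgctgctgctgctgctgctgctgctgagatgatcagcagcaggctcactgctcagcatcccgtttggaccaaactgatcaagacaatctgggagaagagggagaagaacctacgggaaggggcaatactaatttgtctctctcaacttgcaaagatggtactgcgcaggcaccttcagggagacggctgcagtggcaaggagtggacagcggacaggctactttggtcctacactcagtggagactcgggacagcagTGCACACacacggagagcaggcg
Mt1 had 3 matches, Mt2 had 4 and Mt3 had 1 in their windows. The windows shown were picked for the opposite directions of Mt1 and Mt3, which were not called. These counts therefore say nothing of a link between matches and levels. The core was found in 10 of the 30 matched genes (33.3%), near the 28.2% of all genes in the table. No matched gene held both this core and the STAT core.

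Of the 3 genes grouped here as reactive, Serpina3n, Lcn2 and Cd44, 0 were lower and 2 higher in both replicate 1 libraries than in the other 4. Over all tested genes 21.3% were lower and 18.7% higher in this way. Cd44, the hyaluronan receptor, was at 28.1, 13.2 and 16.6 FPKM in KO and at 23.9, 16 and 13.5 FPKM in WT, above in both replicate 1 libraries (log2 difference 0.77, limma adjusted p = 0.0652; 0.78 and adjusted p = 0.0434 over bases assembled in all 6 libraries). Lcn2, the iron-carrier binding protein lipocalin 2, was low, at 1.96, 1.78 and 1.58 FPKM in KO and at 4.76, 0.599 and 0.473 FPKM in WT, with WT replicate 1 the highest library. Serpina3n, a serine protease inhibitor induced in reactive astrocytes, was at 193, 218 and 139.9 FPKM in KO and at 162, 133 and 118 FPKM in WT. Its replicates did not divide. Gfap, which is also raised in reactive astrocytes, was low in replicate 1.

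The calls between replicate 1 and the rest rested on all 6 libraries and on the gene value. Against the 5 calls with all libraries, 2 of the 35 genes were called without KO replicate 2, and 0 without KO replicate 1, without KO replicate 3 or without any 1 of the WT replicates. With no minimum transcript length 0 were called, at log2 differences of -0.95 to -1.57 for the 5 genes. With FPKM summed over transcripts 0 were called. The differences were then -0.105 for Slc1a2, -0.32 for Slc14a1, -0.44 for Slc39a12, -0.91 for Acsbg1 and -0.92 for Aldoc. The sum also moved the median difference of all tested genes from 0.005 to 0.52, so these values do not compare directly with those above. With 1 library left out the log2 difference stayed negative each time, between -0.90 and -1.26 for Slc1a2 and between -1.73 and -1.77 for Slc39a12. Over bases assembled in all 6 libraries, an alternative added after the data were seen, 21 of 34 genes had replicate 1 lowest without overlap, beside 15.1% of all tested genes, and 4 highest, beside 20.4%. Of these 34 genes 9 passed as lower, beside 1.93% of all tested genes, namely Slc4a4, Slc39a12, Aldoc, Slc14a1, Acsbg1, Gfap, Slc1a2, Aqp4 and Sparcl1. Cd44 was the only member that passed as higher, beside 0.675%.

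KO against WT, the comparison the study was built on, gave no call among these genes. Of the 35 tested genes 0 were higher and 0 lower at a limma adjusted p under 0.05, beside 0% and 0.0083% of all tested genes, and the adjusted p was 0.9999 for each. An unadjusted limma p under 0.05 was reached by 0 of the 35 genes, beside 1.62% of all tested genes. No gene had KO and WT values without overlap, beside 2.03% of all tested genes with KO above and 3.03% with KO below. By direction alone 24 of the 35 were higher and 11 lower in KO, with a median log2 difference of 0.13, against -0.005 for all tested genes. Of the 35, 13 were higher in KO without WT replicate 1, with a median of -0.07. KO replicate 1 then had no same-numbered WT library. Without both replicate 1 libraries 22 of the 35 were higher, with a median of 0.031, against 0.013 for all tested genes.

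Among the genes with the smallest unadjusted p were Fgfr3, a growth factor receptor of glial progenitors and astrocytes, Agt, Serpina3n, Gja1, Aldh1l1 and Cst3. Fgfr3 was at 16.5, 25.1 and 29.2 FPKM in KO and at 12.3, 20.6 and 14.7 FPKM in WT, which overlapped. Its log2 difference was 0.54 ± 0.27 (SE; 95% interval -0.11 to 1.19; limma adjusted p = 0.9999). The last Fgfr3 block was assembled over 1.93% of its bases in WT replicate 3, against 96.1% to 99.7% in the other 5 libraries, and over bases assembled in all 6 libraries the difference was 0.28. Aldh1l1 differed by 0.57 ± 0.37 (interval -0.33 to 1.46), Gja1 by 0.41 ± 0.25 (-0.21 to 1.03) and Serpina3n by 0.40 ± 0.21 (-0.12 to 0.92). Agt differed by 0.28 ± 0.14 (-0.07 to 0.63) and Cst3 by 0.21 ± 0.14 (-0.13 to 0.55). For Gja1 the difference was -0.04 over shared bases. The Gfap difference of 0.28 ± 1.05 had an interval of -2.27 to 2.83, which held a change of several fold in either direction. Genotype was the only term in this fit. The spread between replicate numbers therefore entered the error of this and the other KO minus WT intervals. The sign of the Gfap difference turned without KO replicate 3 (-0.37) and without WT replicate 1 (-0.72). Each of these left a replicate number in 1 genotype only, and without both replicate 1 libraries the Gfap difference was 0.01.

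**Figure D3:**
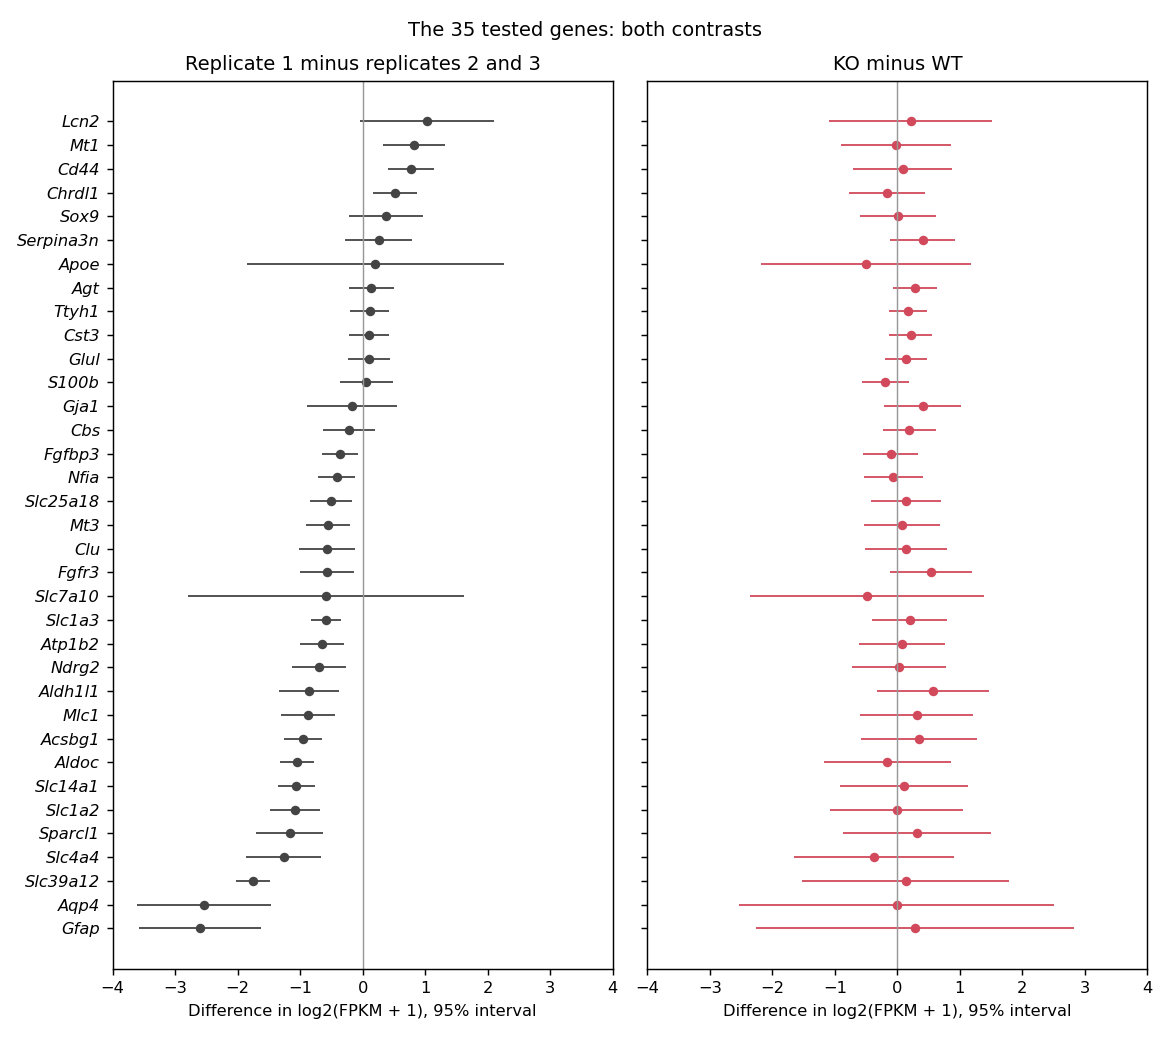
Difference in log2(FPKM + 1) with its 95% interval for each of the 35 tested genes, for replicate 1 minus replicates 2 and 3 on the left and KO minus WT on the right, in the same order of genes. Gfap and Aqp4 lie at -2.60 and -2.54 on the left and at 0.28 and -0.01 on the right, where every interval crosses 0.

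Because same-numbered libraries deviated together, KO was also set against WT within each number. In number 1 KO was higher for 28 of the 35 genes (median 0.23), beside 42.5% of all tested genes. In number 2 it was higher for 12 (median -0.07), beside 49.5%, and in number 3 for 27 (median 0.25), beside 53.7%. The direction of these genes thus turned between numbers. Gfap differed by 0.83, -0.56 and 0.58 in numbers 1, 2 and 3, and Aqp4 by 0.51, -0.73 and 0.20. KO was higher in all 3 numbers for 9 genes (25.7%), beside 13.6% of all tested genes, and lower in all 3 for 2 genes (5.71%), beside 15.8%. With the replicate number as a block in the fit, 0 of the 35 genes passed.

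**Figure D4:**
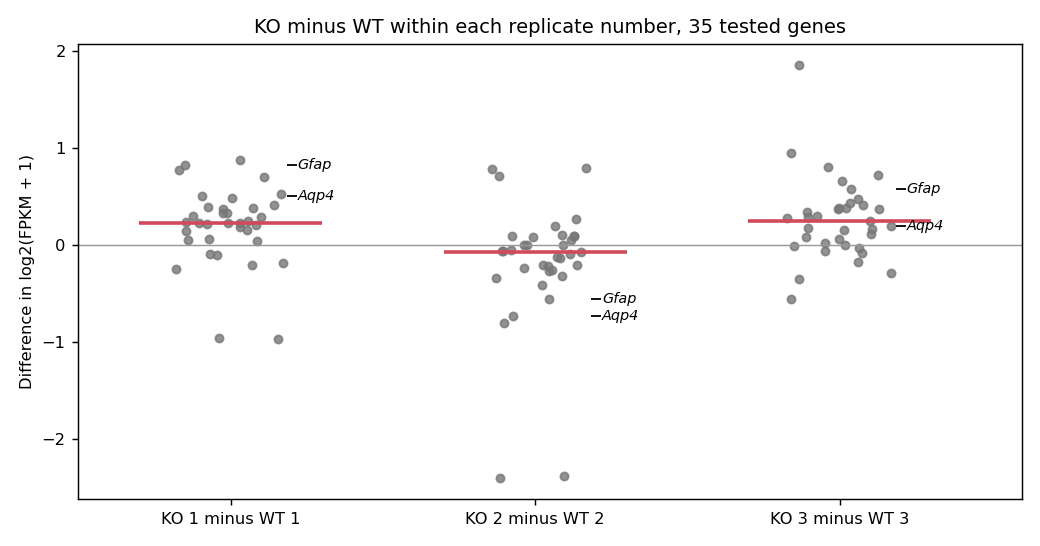
KO minus WT difference in log2(FPKM + 1) for each of the 35 tested genes within replicate numbers 1, 2 and 3, with the median of each as a red line. The medians are 0.23, -0.07 and 0.25, and the labels mark the values of Gfap and Aqp4, which lie above 0 in numbers 1 and 3 and below it in number 2.

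KO replicate 3 was the highest library for 15 of the 35 genes (42.9%), against 15.9% of all tested genes, and WT replicate 1 was the lowest for 18 (51.4%), against 20.6%. Both held for 10 genes (28.6%), against 5.94%. WT replicate 1 is also the library with the shortest assembled pieces, and the part of that in its low levels was not tested. Over all tested genes it was the highest library for 27% and the lowest for 20.6%.

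Other lists of the tissue were counted in the same fit, and 0 of their 137 tested genes passed for KO against WT. Of 23 other tested astrocyte genes 18 were higher in KO (median 0.14), with Lcat, a cholesterol-esterifying enzyme, at 10.4, 11.98 and 14.4 FPKM in KO and at 1.54, 12.1 and 3.98 FPKM in WT. Of the same 23 genes 17 were lower in replicate 1 (median -0.37), 11 of them without overlap, beside 21.3% of all tested genes. Only 1 passed, Htra1, a secreted protease, which was higher there, beside 0.349% of all tested genes. Htra1 was at 19.3, 11.5 and 10.5 FPKM in KO and at 23.9, 10.9 and 9.19 FPKM in WT (limma adjusted p = 0.04997). Of 23 other reactive genes 17 were higher in KO (median 0.15), and by replicate 14 were higher and 9 lower in replicate 1 with 0 calls. Without overlap, 6 were higher and 4 lower there, beside 18.7% and 21.3% of all tested genes. C3, the complement component of reactive astrocytes and microglia, was at 2.29, 1.11 and 3.48 FPKM in KO and at 1.12, 1.18 and 1.22 FPKM in WT.

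Another list held genes of the CNTF, bone morphogenetic protein and Notch pathways and transcription factors such as Nfib, Nfix, Sox8 and Zbtb20, which take part in astrocyte formation. Of its 22 tested genes 10 were higher and 12 lower in KO (median -0.03). Stat3 was at 50.2, 57.8 and 63.4 FPKM in KO and at 50.95, 63.4 and 59.9 FPKM in WT, and Socs3, the feedback inhibitor that STAT3 induces, at 23.6, 30.1 and 32.2 FPKM in KO and 25.7, 30.4 and 27.1 FPKM in WT. By replicate, 16 of the 22 were lower in replicate 1 (median -0.28) and 0 passed. Of these, 13 were lower without overlap, beside 21.3% of all tested genes. Id3, a target of bone morphogenetic protein signalling, had the smallest p of the list for that split, with 27.3, 61.9 and 112 FPKM in KO and 28.1, 68.1 and 73.4 FPKM in WT (-1.43, limma adjusted p = 0.0634).

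Markers of other cell types stood beside these results as follows. All 14 tested microglial markers had positive KO minus WT differences (median 0.76) and 0 were called. An unadjusted p under 0.05 was reached by 5 of the 14, beside 1.62% of all tested genes, and C1qa, C1qb, C1qc, Tyrobp and Laptm5 had KO values above WT without overlap, beside 2.03%. The 18 genes of that list summed to 288, 399 and 460 FPKM in KO and to 208, 236 and 264 FPKM in WT, and 0 of them were listed at 0 in all 6 libraries. Apoe and Cst3 are expressed in microglia as well, and the part of microglial RNA in the KO differences was not tested. Neuronal markers were higher in KO for 2 of 11 (median -0.27), with sums of 372, 369 and 328 FPKM in KO and 552, 376 and 336 FPKM in WT. Radial glia markers were higher in KO for 11 of 12 (median 0.14), summing to 492, 677 and 864 FPKM in KO and to 539, 618 and 727 FPKM in WT. Those sums were lowest in replicate 1 of each genotype, as for Gfap. OPC markers were higher in KO for 3 of 16 (median -0.17), vascular and meningeal markers for 5 of 10 (median 0.02) and ependymal markers for 4 of 6 (median 0.14). Without overlap 3 of the 16 OPC markers lay lower in KO and 0 higher, beside 3.03% and 2.03% of all tested genes. By the same count 2 of the 12 radial glia markers lay higher and 1 of the 11 neuronal markers lower. An unadjusted limma p under 0.05 was reached by 1 of the 16 OPC markers and 1 of the 12 radial glia markers. In the split by replicate, limma called Trem2 among microglial markers and Dynlrb2 among ependymal markers lower in replicate 1 (adjusted p = 0.0399 and 0.0411) and Cdh5 among vascular markers higher (adjusted p = 0.04997).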

How the data were processed

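RNA-seq libraries from 3 KO and 3 WT OPC cultures were grouped by genotype and numbered from their titles. The submitters' processing notes name the mm10 build, TopHat2 2.1.1, Cufflinks 2.2.1, Cuffdiff 2.2.1 and FastQC, and no strand setting is stated in the sources used here. The authors deposited 1 transcript assembly per library, with exons, coverage and FPKM for each transcript, with no gene names and no other values. Transcripts of 300 nt or more were matched by position to GENCODE M21 basic. FPKM was summed at each exonic base that no other gene shares and averaged over these bases, for genes with at least 200 of them. Mt2 fell under this minimum. Unassembled bases lower such an average, so extent and level are mixed, and without read counts depth is known only relatively, so no counting interval is given.

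Values were tested as log2(FPKM + 1), computed here from the FPKM the authors deposited, in R 4.3.3 with limma 3.58.1. Its two-sided empirical Bayes test used a mean-variance trend and Benjamini-Hochberg adjustment over 12045 genes with a mean of at least 1 FPKM, at a threshold of 0.05. This scale understates the change of low genes. Genotype was the only term for KO against WT, and was kept as a covariate for replicate 1 against replicates 2 and 3. The code was tested on simulated data. Same-numbered libraries deviated together (r across genes, which are not independent replicates, 0.369 for number 1, 0.197 for number 2 and 0.293 for number 3, with -0.277 to 0.0234 between unlike numbers), so the numbers from the titles were taken to pair the samples. As these deviations were from each genotype's own mean, the values between unlike numbers are not independent of those for like numbers.

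The genes, the other lists (other astrocyte, other reactive, gliogenic signalling, OPC, microglia, neuron, radial glia, vascular and meningeal, ependymal) and the tests were chosen with earlier results of these data known. Full statistics are given for genes past the threshold, for the 6 with the smallest unadjusted p in each contrast, and for Gfap. From other lists, genes past the threshold and at most 2 with the smallest p are named, together with Mki67, Xist, Stat3, Socs3 and the microglial genes without overlap, chosen after their values were seen. Promoter windows came from a RefSeq table of GRCm38.p6. Alternatives covered pseudocounts, filters, scaling, the replicate block, the identifier number, array weights, gene values and left-out libraries.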

Additional observations from a re-analysis of the deposited data

How the results depend on the processing

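The 35 genes gave 0 calls for KO against WT in every alternative, and the other lists gave 0 in every alternative run for them. The number of genes higher in KO was 16 to 25 across settings and 13 to 27 across single left-out libraries. All tested genes gave 1 call, against 0 with a pseudocount of 0.1 or 5, with a mean of at least 5 FPKM, with the replicate block, with FPKM summed over transcripts and over bases assembled in all 6 libraries (added after the data were seen), 2 over assembled bases only, 27 without both replicate 1 libraries and 1 to 17 without single libraries. The replicate block changed no call of a gene named here.

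For replicate 1 against the rest, the 5 calls among the 35 genes became 3 with median centring, 0 with the sum over transcripts or no minimum transcript length, 10 with array weights, 10 over bases assembled in all 6 libraries and 0 to 2 without single libraries. All tested genes gave 249 calls, against 165 with quantile normalization, 70 over assembled bases only, 0 with the sum, 8 without a length minimum, 557 with array weights and 5 to 46 without single libraries. Fewer libraries were tested when 1 was left out, and otherwise the cause was not tested.

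KO minus WT turned sign with the sum over transcripts for Fgfr3 (-0.32), Gja1 (-0.035), Aldh1l1 (-0.19) and Gfap (-0.14), where the median of all genes was -0.25, and Gja1 was also at -0.035 over assembled bases only and over bases assembled in all 6 libraries. Gfap was at -0.079 with array weights and ran from -0.72 (without WT replicate 1) to 1.01 (without KO replicate 1) over left-out libraries, with -0.37 without KO replicate 3. With both replicate 1 libraries left out Gfap was at 0.01. Relative to that median of all genes the sum gave a higher value in KO for Gja1, Aldh1l1 and Gfap. For replicate 1 against the rest the median of all genes was 0.52 with the sum, against 0.005. Depth is known only relatively.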
